A study of Mus musculus with 16 samples.

Results

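The primary cilium is a single non-motile antenna that most epithelial cells of the kidney carry on their apical side, where it senses fluid flow and signals. Cargo is carried along it on intraflagellar transport (IFT) trains, outward by the IFT-B complex with a kinesin-2 motor and back by the IFT-A complex with a dynein-2 motor, and the BBSome takes membrane proteins out of it. A gate at its base, the transition zone, is built of the MKS and NPHP modules. Mutations in these genes cause inherited disorders that often affect the kidney, such as nephronophthisis, Joubert syndrome and Bardet-Biedl syndrome. The genes described here were taken by symbol: all Ift, Bbs and Nphp genes with a number, Tctn1 to Tctn3, and further genes of the same machinery (Kif3a, Kif3b, Kifap3, Dync2h1, Dync2li1, Arl13b, Arl3, Arl6, Cep290, Mks1, Cc2d2a, Rpgrip1l, Tmem67, Tmem216, Ahi1, Ofd1, Inpp5e, Tulp3 and Wdr35), if they reached 1 CPM (counts per library size: a gene's count scaled to the size of its library) in at least 4 of the 16 libraries. Of 48 matching symbols 47 passed, and all 47 reached the limit in all 16 libraries. The symbol that did not pass, Ift88os, is an RNA antisense to Ift88 and reached it in 0 libraries. The 47 genes are part of 13234 tested genes, of 54393 in the count table, and lie on 17 chromosomes. No measured difference entered this rule, but the genes were chosen with earlier results of these data known.

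The cells were mIMCD3, a line of collecting duct epithelium from the inner medulla of a mouse with the SV40 T antigen, and carry the genotype label wild type. After 10 days of culture on permeable filters, the cells received doxycycline (DOX, a tetracycline antibiotic) at 2 µg/mL or its vehicle DMSO, with daily changes of medium, for 3 days or for 6 days. This gives 4 groups of 4 libraries of polyadenylated RNA. The labels do not say whether the 4 replicates of a group came from separate cultures, so p-values measure the spread between these libraries. Total estimated counts ran from 16933343 to 23960860 a library, and each of the 47 genes had between 51 and 2958 counts in every library. All 6 epithelial markers were present in DMSO-treated cells, at mean levels from 78.9 TPM (transcript abundance scaled for length and depth) for Cdh1 to 889 TPM for Krt18. Collecting duct markers were low, with the water channel Aqp2 at 0.184 TPM, the vasopressin receptor Avpr2 at 0.371 TPM and Gata3 at 2.67 TPM. The leukocyte gene Ptprc had at most 22 counts in any library, and the endothelial genes Pecam1 and Cdh5 at most 28 and 6. Of 9 genes known from motile ciliated cells, 3 passed the filter, among them Foxj1 at 2.89 TPM, while the axonemal dynein genes Dnah5 and Dnah9 had at most 6 and 4 counts in a library.

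The DMSO-treated cells expressed the whole set. TPM divides by transcript length and so allows levels to be compared between genes. Averaged over the 8 DMSO-treated libraries, the 47 genes ranged from 0.933 to 86.0 TPM with a median of 11.9 TPM, against a median of 15 TPM over all tested genes. There were 26 genes at or above 10 TPM and 10 genes under 5 TPM. The spread between replicates was modest, with a median coefficient of variation of 9.67% within groups.

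The IFT-B complex was the most evenly expressed of the larger groups. Its 11 members lay between 8.93 ± 0.700 TPM (SD, n = 8) for Ift88, a core subunit without which cilia do not form, and 56.6 ± 5.10 TPM for Ift46, with a median of 29.5 TPM. The other members were Ift20, Ift22, Ift27, Ift52, Ift57, Ift74, Ift80, Ift81 and Ift172. The 4 IFT-A members were spread more widely, from 4.35 ± 0.657 TPM for Ift140 to 86.0 ± 6.52 TPM for Ift43, with Ift122 and Wdr35 between them. Ift43, a small peripheral subunit, thus stood 19.8-fold above Ift140 in the same complex and was the highest gene of the set.

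Among the motors the order spanned 29.2-fold. Dync2h1, the very long heavy chain of dynein-2, had the lowest mean of all 47 genes, 0.933 ± 0.192 TPM, while its light intermediate chain Dync2li1 had 27.2 ± 4.26 TPM. Kif3a, Kif3b and the accessory subunit Kifap3, the parts of kinesin-2, lay between them. In the BBSome the membrane-recruiting GTPase Arl6 was highest at 26.4 ± 2.10 TPM and Bbs9 lowest at 3.26 ± 0.624 TPM, with Bbs1, Bbs2, Bbs4, Bbs5 and Bbs7 in between. The chaperonin-like genes Bbs12 and Bbs10, which help assemble the BBSome, had 9.50 ± 0.747 and 3.37 ± 0.293 TPM.

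In the transition zone, the 9 genes of the MKS module ran from 2.08 ± 0.363 TPM for Ahi1, which encodes jouberin, to 19.5 ± 2.65 TPM for Tctn1, a tectonic protein. The module also holds Mks1, Tctn2, Tctn3, Cc2d2a, Cep290, Tmem67 and Tmem216. The 4 genes of the NPHP module, Nphp4 and Rpgrip1l among them, had a median of 4.76 TPM. Among the genes that bring proteins to the ciliary membrane, the GTPase Arl3, which releases lipid-modified cargo, had 81.4 ± 7.50 TPM and the phosphatase Inpp5e 11.9 ± 2.42 TPM, with Arl13b and Tulp3 between them. Arl3 and the highest gene, Ift43, also differed by less than 1 SD. Ofd1, a protein of the distal centriole and of centriolar satellites, had 5.66 ± 0.710 TPM.

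**Figure D1:**
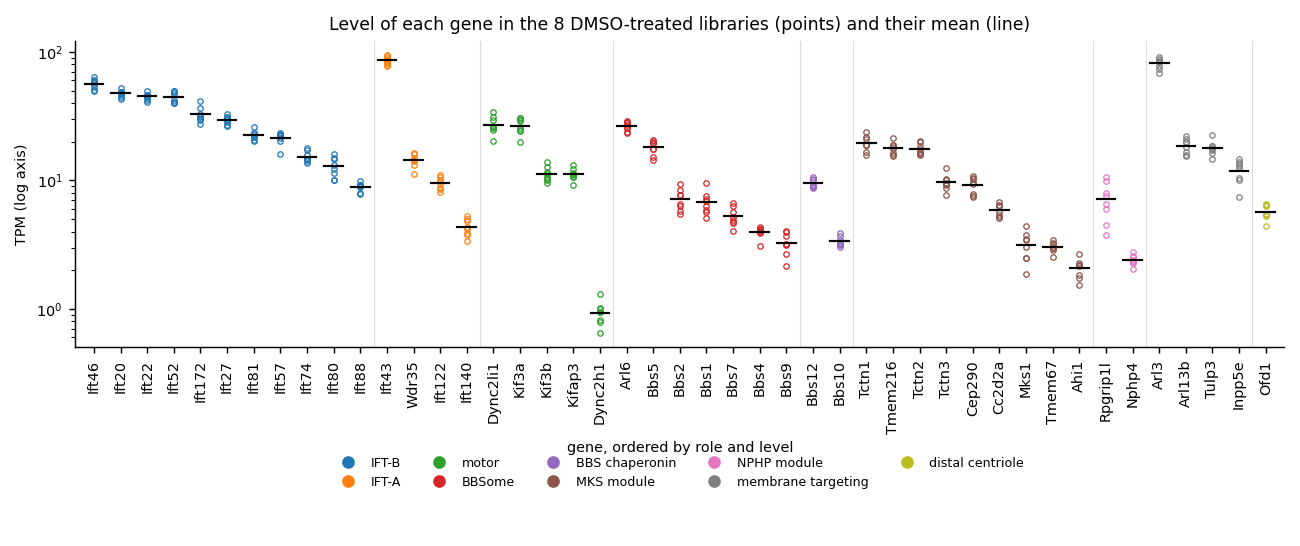
Level of 45 of the 47 genes in TPM (vertical log axis), ordered by role and level. Open points are the 8 DMSO-treated libraries and lines their means, from 0.933 TPM for Dync2h1 to 86.0 TPM for Ift43.

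Many cilium genes are known to carry an X-box, the binding site of RFX transcription factors, near their start. Promoter windows from 250 bases before to 50 bases after the gene start, from RefSeq on GRCm38.p6, were at hand for 40 of the 47 genes and were searched on both strands for GTNNCC and NGNAAC separated by 0 to 3 letters. A match is a description of letters and not a site shown to be bound. Such letters were found in 13 of the 40 genes (32.5%), against 5.94% of 27025 genes with a window and 6.97% of the 9807 tested genes with a window. The 13 genes held 15 separate matches, of which 6 read on both strands, and no matches of 1 gene overlapped. With a spacer of 1 to 3 letters the count was also 13 genes, against 4.98% of all genes with a window. The 7 genes of this group that were called in a comparison below are shown. Whether the letters bear on the measured changes was not tested. Each line gives 30 bases 5′ to 3′ on the strand of the gene, with the match in capitals. The matches of Ift74 and Tctn2 fit the searched letters on the opposite strand only, and those of the other genes shown fit on both strands.
Ahi1: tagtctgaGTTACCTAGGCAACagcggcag
Bbs7: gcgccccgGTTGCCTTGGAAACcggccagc
Ift74: cggtgaccGTTGCTAGGATACgcggcgtcg
Mks1: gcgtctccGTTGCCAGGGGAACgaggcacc
Tctn1: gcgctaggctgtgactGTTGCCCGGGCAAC
Tctn2: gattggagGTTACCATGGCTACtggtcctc
Tctn3: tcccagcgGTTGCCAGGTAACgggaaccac

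On GRCm38.p6 these stretches are chr10:20952560-20952589 (+ strand) for Ahi1, chr3:36613489-36613518 (- strand) for Bbs7, chr4:94614478-94614507 (+ strand) for Ift74, chr11:87853183-87853212 (+ strand) for Mks1, chr5:122264411-122264440 (- strand) for Tctn1, chr5:124598679-124598708 (+ strand) for Tctn2 and chr19:40612350-40612379 (- strand) for Tctn3. Counted from the gene start, the matches began at position -140 in Tctn3, -121 in Bbs7, -62 in Tctn2, -24 in Mks1, -5 in Ift74, 22 in Ahi1 and 37 in Tctn1. All 3 tectonic genes therefore held a match, at different distances. The other 6 genes with a match were Bbs1, Bbs4, Ift22, Ift57, Nphp4 and Tmem216. Among the 7 genes not in the window table were Ift122, Ift80, Ift81, Dync2li1 and Tmem67.

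Genes between DOX and DMSO were compared with edgeR's glmTreat, which asks whether a change exceeds 1.2-fold, and those with a Benjamini-Hochberg adjusted p under 0.05 over all tested genes are referred to as called. In these bulk samples, less of an RNA in each cell and fewer cells with that RNA cannot be told apart. At 3 days DOX called 6 of the 47 genes (12.8%), against 12.5% of all tested genes, so the set as a whole was called no more often than other genes. Of these, 5 were higher, where 5.30% of all tested genes were, and 1 was lower, where 7.22% were. At 6 days 9 of the 47 genes were called (19.1%), against 21.6% of all tested genes. Of these, 7 were higher, where 10.0% of all tested genes were, and 2 lower, where 11.6% were.

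Among the genes called higher at 3 days were Ahi1, Ift172, Dync2li1 and Ift74, and the gene called lower was Ift80. At 6 days the higher genes included Ahi1, Ift122, Ift172, Bbs7, Mks1 and Tctn3, and the lower ones were Ift80 and Ift20. There were 4 genes called at both times, all in the same direction, with Ahi1, Ift172 and Ift80 among them, and 36 of the 47 genes were called at neither time. The median log2 fold change of the 47 genes was 0.12 at 3 days and 0.19 at 6 days, against 0.00 at both times over all tested genes, and 28 and 34 of the 47 values were above 0. The sign of the median at 3 days depends on the scale. In log2(TPM + 1) the median of the 47 genes was -0.04 at 3 days and 0.08 at 6 days, against -0.15 and -0.05 over all tested genes. On both scales it thus lay above the median of all tested genes. Counted by libraries, all 4 DOX values lay above all 4 DMSO values for 16 of the 47 genes at 3 days, where 18.8% of tested genes did, and for 18 genes at 6 days, where 22.1% did. All 4 DOX values lay below for 4 genes at each time, where 19.8% and 20.9% of tested genes did. The CPM values given for genes and lists carry TMM scaling of the library sizes. Summed over the 47 genes they ran from 1287 to 1361 CPM in DMSO and from 1466 to 1494 CPM in DOX at 3 days. At 6 days they ran from 1331 to 1373 CPM and from 1522 to 1571 CPM. By library size alone, without TMM, the sums overlapped at 3 days, at 1241.3 to 1412.9 CPM in DMSO and 1391 to 1468.9 CPM in DOX. At 6 days they did not overlap, at 1345.3 to 1404.6 CPM and 1536.6 to 1602.3 CPM. In summed TPM the groups overlapped at both times, at 772 to 905 TPM in DMSO and 804 to 906 TPM in DOX at 3 days and 874 to 935 and 894 to 952 TPM at 6 days.

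**Figure D2:**
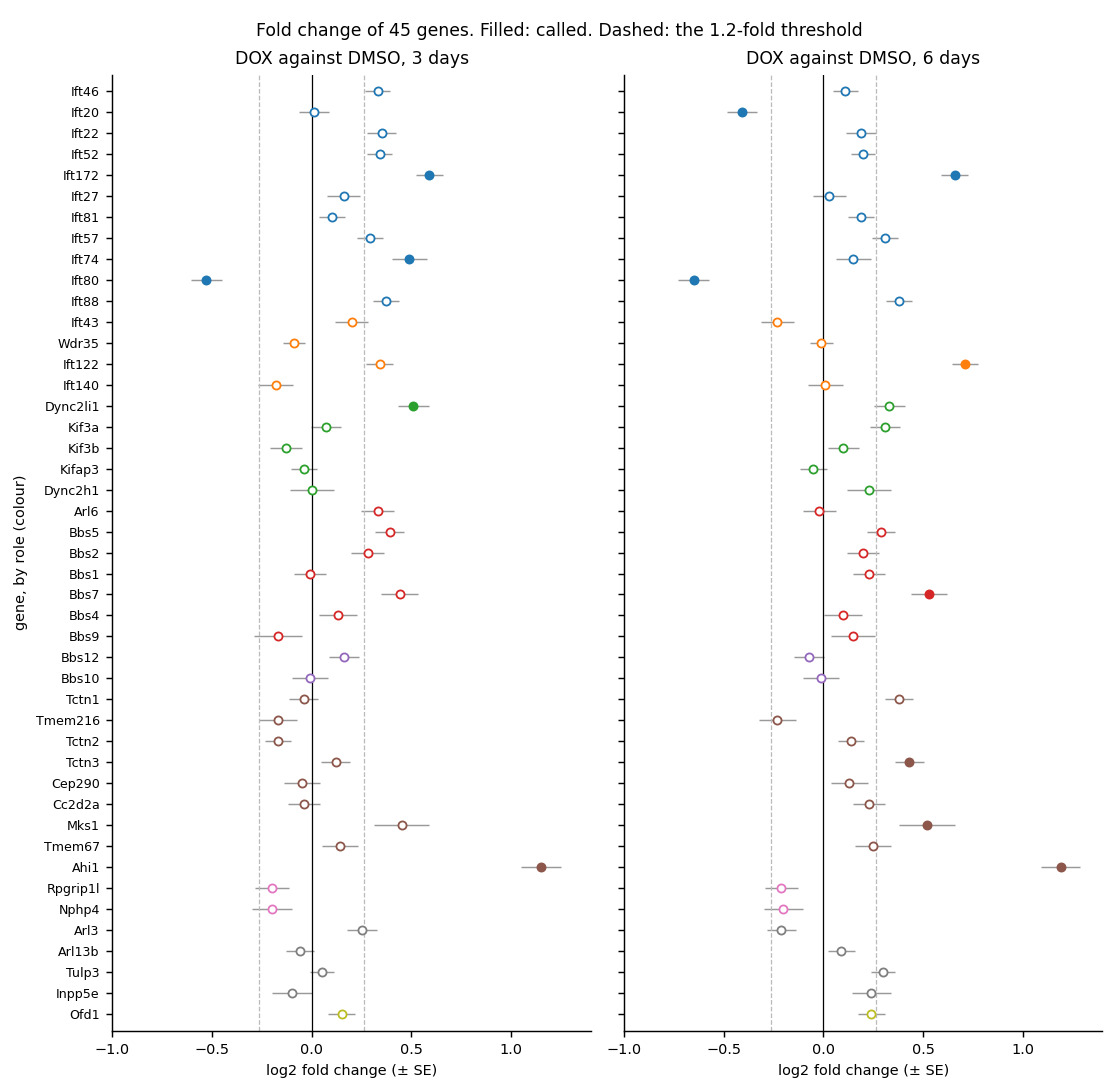
Log2 fold change of DOX against DMSO (horizontal axis, ± SE) for 45 of the 47 genes at 3 days (left) and 6 days (right), ordered and coloured by role. Filled points were called, 5 of the genes shown at 3 days and 8 at 6 days, and dashed lines mark a 1.2-fold change.

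In the IFT-B complex, 2 of 11 genes were called higher and 1 lower at 3 days, and 1 higher and 2 lower at 6 days. The shares over all tested genes were 5.30% higher and 7.22% lower at 3 days, and 10.0% and 11.6% at 6 days. Ift172, the largest IFT-B subunit, lies at chr5:31253277-31291116 (- strand, GRCm38) and overlaps no other gene's exons. It had 74.9, 77.3, 76.5 and 87.2 CPM in the 4 DMSO libraries of 3 days and 129, 116, 118 and 113 CPM with DOX. At 6 days it had 89.3, 76.5, 72.1 and 80.8 CPM in DMSO and 120, 121, 128 and 136 CPM with DOX. Every DOX value lay above every DMSO value, and Ift172 rose by 0.59 on the log2 scale at 3 days (SE 0.068, edgeR adjusted p = 2.35e-04) and 0.66 at 6 days (SE 0.068, adjusted p = 9.68e-06).

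Ift80, a peripheral IFT-B subunit at chr3:68892499-69004570 (- strand), moved the other way. In DMSO it had 34.9, 32.5, 36.3 and 36.5 CPM at 3 days and 31.5, 34.1, 33.0 and 38.3 CPM at 6 days. With DOX it had 23.7, 21.5, 24.8 and 27.0 CPM at 3 days and 19.8, 22.5, 23.6 and 21.3 CPM at 6 days. The groups did not overlap at either time, and Ift80 fell by 0.53 (SE 0.077, edgeR adjusted p = 0.00332) and 0.65 (SE 0.077, adjusted p = 6.46e-05) on the log2 scale.

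Ift74, which with Ift81 binds tubulin as cargo, had 26.1, 25.4, 24.5 and 23.1 CPM in DMSO and 31.5, 33.6, 38.4 and 35.5 CPM with DOX at 3 days. It rose by 0.49 (SE 0.089, edgeR adjusted p = 0.0220), a call that was lost without replicate 4 of DMSO (0.45, adjusted p = 0.0685), without replicate 3 of DOX (0.44, adjusted p = 0.0868) and with DESeq2 (adjusted p = 0.171). At 6 days its groups overlapped, with 25.1, 24.6, 27.8 and 28.8 CPM in DMSO and 35.4, 30.1, 26.1 and 26.0 CPM with DOX. Ift81 itself had log2 fold changes of 0.10 and 0.19 and was called at neither time.

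Ift20, a small IFT-B subunit that is also found at the Golgi, had 27.1, 28.9, 26.4 and 27.1 CPM in DMSO and 23.5, 19.7, 19.7 and 19.6 CPM with DOX at 6 days. All 4 DOX values were below all 4 DMSO values and Ift20 fell by 0.41 (SE 0.075, edgeR adjusted p = 0.0393). The call was near the limit. It was lost with DESeq2 (adjusted p = 0.309), with the length and GC correction described below (-0.31, adjusted p = 0.214), and without replicate 2 or 4 of DMSO or 2, 3 or 4 of DOX (-0.41 to -0.38, adjusted p from 0.0530 to 0.105). At 3 days its values overlapped, with 26.9, 26.6, 27.0 and 24.4 CPM in DMSO and 23.6, 27.4, 25.2 and 29.2 CPM with DOX. The remaining 7 IFT-B genes were not called. Ift88 came nearest. It had 19.0, 19.9, 20.3 and 17.4 CPM in DMSO and 24.9, 25, 23.6 and 25.1 CPM with DOX at 3 days, and 20.1, 18.8, 20.0 and 19.9 CPM and 27.9, 24.9, 25.3 and 24.3 CPM at 6 days. Its groups did not overlap at either time, with log2 fold changes of 0.37 and 0.38 (adjusted p = 0.109 and 0.0574). Ift46, the most abundant IFT-B gene, had log2 fold changes of 0.33 and 0.11.

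Of the 4 IFT-A genes Ift122 changed. It lies at chr6:115853470-115926699 (+ strand). At 3 days it had 29.5, 29.7, 31.2 and 34.2 CPM in DMSO and 39.9, 38.2, 37.4 and 42.6 CPM with DOX, which did not overlap but gave no call (0.34, SE 0.068, edgeR adjusted p = 0.209). At 6 days it had 35.7, 30.6, 29.1 and 30.3 CPM in DMSO and 50.5, 51.4, 50 and 53.1 CPM with DOX. It rose by 0.71 at this time (SE 0.067, adjusted p = 2.56e-06), a 1.63-fold difference. Wdr35 had log2 fold changes of -0.09 and -0.01, Ift140 of -0.18 and 0.01 and Ift43 of 0.20 and -0.23 at 3 and 6 days, and these genes were not called.

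Among the motors, Dync2li1 rose at 3 days, from 22.0, 25.5, 25.2 and 24 CPM in DMSO to 29.5, 34.7, 37.7 and 36.2 CPM with DOX (0.51, SE 0.080, edgeR adjusted p = 0.00702). At 6 days it had 26.0, 29.6, 29.6 and 31.5 CPM in DMSO and 40.3, 34.9, 37.2 and 34.5 CPM with DOX, which did not overlap either (0.33, SE 0.078, adjusted p = 0.245). With the length and GC correction the 3-day call was lost (0.35, adjusted p = 0.175) and the 6-day value was called (0.40, adjusted p = 0.0204). The heavy chain Dync2h1 and the kinesin-2 genes Kif3a, Kif3b and Kifap3 had log2 fold changes between -0.13 and 0.31 at the 2 times and were not called.

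In the BBSome, Bbs7 was called at 6 days. It lies at chr3:36573142-36613477 (- strand). It had 10.0, 9.62, 9.48 and 8.80 CPM in DMSO and 14.7, 13.1, 13.9 and 13.0 CPM with DOX, without overlap, and rose by 0.53 (SE 0.090, edgeR adjusted p = 0.00542). DESeq2 gave an adjusted p of 0.0681 for the same gene. At 3 days it had 8.63, 8.90, 8.99 and 9.90 CPM in DMSO and 10.2, 13.1, 12.4 and 13.7 CPM with DOX (0.44, SE 0.091, adjusted p = 0.0680). The other 6 genes of this group, with log2 fold changes from -0.17 to 0.39, were not called, nor were the chaperonins Bbs10 and Bbs12, whose log2 fold changes lay between -0.07 and 0.16.

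The largest change of the set was in the MKS module. Ahi1 lies at chr10:20952547-21080429 (+ strand) and overlaps no other gene's exons. In DMSO it had 6.25, 5.81, 7.38 and 7.30 CPM at 3 days and 8.95, 7.82, 7.47 and 9.27 CPM at 6 days. With DOX it had 13.6, 15.8, 14.4 and 15.3 CPM at 3 days and 19.7, 17.9, 21.3 and 17.5 CPM at 6 days. The groups were far apart at both times, and Ahi1 rose 2.21-fold at 3 days (log2 1.15, SE 0.10, edgeR adjusted p = 2.96e-07) and 2.28-fold at 6 days (log2 1.19, SE 0.096, adjusted p = 2.97e-08). The call held at both times in all 11 other fits that were tried, with values from 0.67 to 1.29 at 3 days and from 0.88 to 1.26 at 6 days, and without each library in turn, with 1.07 to 1.2 and 1.13 to 1.24.

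Tctn3 had 19.6, 18.4, 20.0 and 18.4 CPM in DMSO and 24.5, 25.9, 26.1 and 26.4 CPM with DOX at 6 days, without overlap, and rose by 0.43 (SE 0.073, edgeR adjusted p = 0.0222). The call was lost with DESeq2 (adjusted p = 0.218) and without replicate 2 or 4 of DMSO (0.41 in both cases, adjusted p = 0.0580 and 0.0526). Mks1, a protein of the B9 complex in this module, had 6.83, 5.02, 4.77 and 4.19 CPM in DMSO and 7.44, 7.23, 8.53 and 6.63 CPM with DOX at 6 days, with 1 DMSO library among the DOX values. It rose by 0.52 (SE 0.14, adjusted p = 0.0450), and this call is weak, since it was lost with DESeq2 (adjusted p = 0.395), with the length and GC correction (0.47, adjusted p = 0.0687) and without 8 of the 16 libraries taken singly (0.43 to 0.54, adjusted p from 0.0514 to 0.154). These were replicates 2, 3 and 4 of DMSO and 1, 2 and 3 of DOX at 6 days, replicate 2 of DMSO and replicate 3 of DOX at 3 days. Tctn1 had a log2 fold change of 0.38 at 6 days (adjusted p = 0.0680), and the remaining 5 genes of the module lay between -0.23 and 0.25 at both times.

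In the NPHP module, Nphp4 and Rpgrip1l, a scaffold protein of the transition zone, had log2 fold changes of -0.20 and -0.20 at 3 days and -0.20 and -0.21 at 6 days and were not called, and Nphp4 had 0.04 at 3 days with the length and GC correction. The 4 genes that target proteins to the ciliary membrane had log2 fold changes from -0.21 to 0.30 and Ofd1 0.15 and 0.24, and they were not called.

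**Figure D3:**
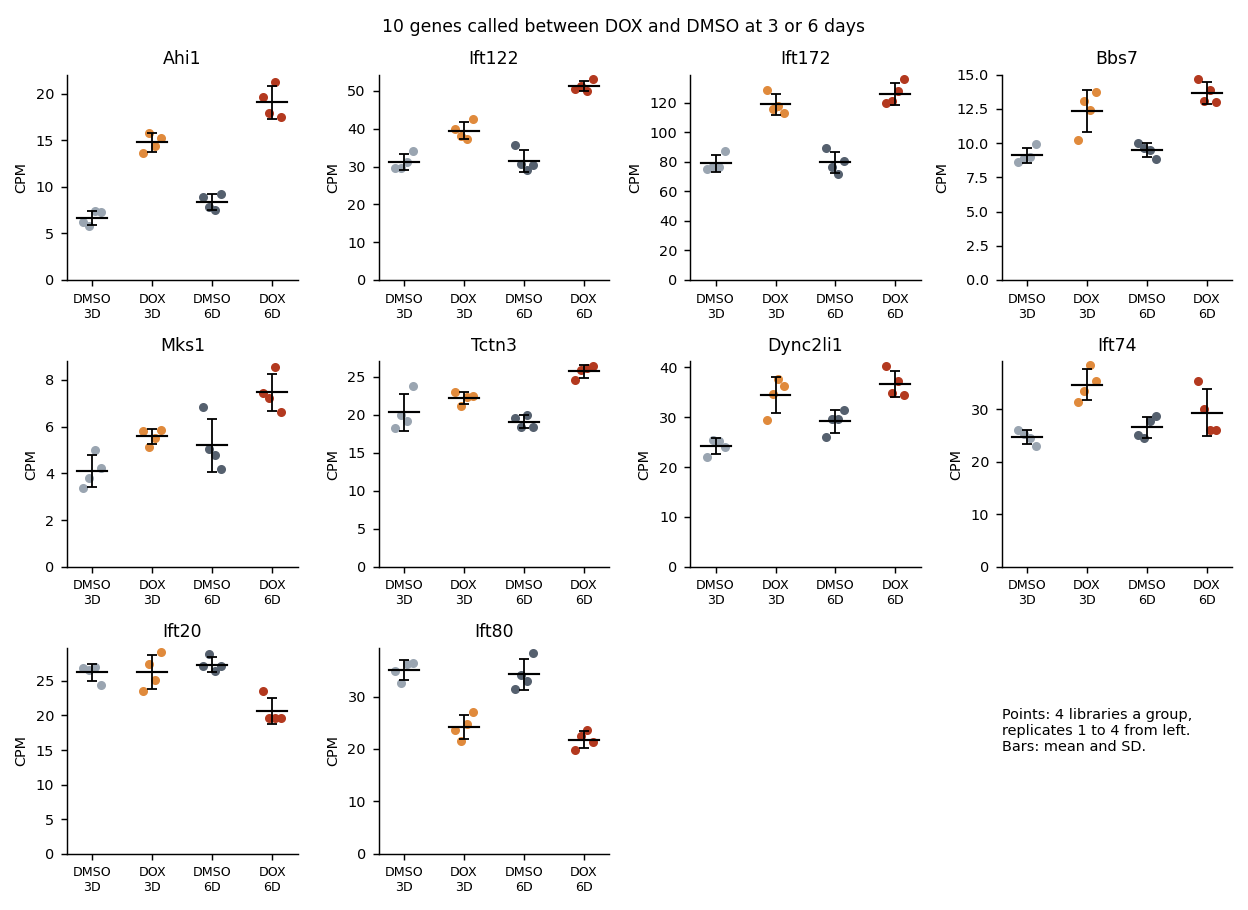
Scaled counts (CPM, vertical axes from 0) of 10 of the 11 genes called at 3 or 6 days, in each of the 4 groups. Points are libraries, lines and bars are mean and SD of 4, and the DOX mean lies above the DMSO mean at both times for the genes shown other than Ift80 and Ift20.

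The TPM scale gave smaller changes for some of these genes. By limma's treat on log2(TPM + 1), 1 gene was called at 3 days, Ahi1, and 3 at 6 days, Ahi1, Ift122 and Ift20, which is 2.13% and 6.38% of the 47 genes against 5.32% and 9.92% of all genes on this scale. Ift172 had 0.25 and 0.24 there, against 0.59 and 0.66 in counts. The ratio of the deposited count to TPM gives the effective transcript length that salmon used for a gene, which is longer when longer isoforms take more of the reads. For Ift172 that length was 2499, 2707, 2825 and 2615 bases in DMSO and 3192, 3662, 3467 and 3348 bases with DOX at 6 days, a log2 difference of 0.36 without overlap. At 3 days it was 2534, 3095, 2763 and 3216 bases in DMSO and 3002, 3264, 3105 and 3465 bases with DOX, which overlapped. A difference of at least 0.1 log2 without overlap was seen for 0 of the 47 genes at 3 days, where 2.03% of 11772 genes with 20 or more counts in every library had one, and for 2 genes at 6 days, Ift172 and Cep290, where 2.23% did. This limit was chosen after the values were seen. For Bbs7, whose value was 0.11 in TPM at 6 days against 0.53 in counts, the length was 2459, 1672, 1675 and 2007 bases in DMSO and 2434, 2425, 2417 and 2479 bases with DOX, which overlapped in 1 DMSO library.

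In the vehicle, when the DMSO libraries of the later time were set against those of the earlier, 0 of the 47 genes and 0% of all tested genes were called by edgeR's glmTreat, and 0 of the 47 by DESeq2 and by limma. An unadjusted p under 0.05 was found for 1 gene, Dync2h1, which had 12.1, 12.2, 12.0 and 13.5 CPM at 3 days and 9.29, 8.10, 9.26 and 11.3 CPM at 6 days (log2 difference -0.40, SE 0.11, edgeR adjusted p = 1). Without overlap between the DMSO times, 4 of the 47 genes were higher at 6 days, where 6.85% of all tested genes were, and 1 was lower, where 5.39% were. The lower one was Dync2h1. The higher ones were Ahi1 at 1.25-fold, Bbs5 at 1.22-fold, Dync2li1 at 1.21-fold and Ift52 at 1.14-fold, so the DMSO level of Ahi1 was 6.68 ± 0.78 CPM (SD, n = 4) at 3 days and 8.38 ± 0.867 CPM at 6 days. Between 6 and 3 days in DOX, 0 of the 47 genes were called by edgeR, DESeq2 or limma, although edgeR's share over all tested genes was 3.94%. Unadjusted p-values below 0.05 were seen for 5 genes, Ahi1, Bbs9, Ift122, Ift20 and Mks1. The share of all tested genes at this unadjusted limit is not given here for DMSO or DOX. These counts of 1 and 5 genes are therefore not a result about the 47 genes.

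Whether the DOX effect differed between the times was tested directly, as the effect at 6 days minus that at 3 days, without a fold-change threshold. edgeR called 9 of the 47 genes (19.1%), against 17.0% of all tested genes. The difference was positive for 5 genes, where 7.44% of tested genes were, and negative for 4, where 9.58% were. The positive ones were the tectonic genes Tctn1 (0.42, SE 0.10, edgeR adjusted p = 0.00931), Tctn2 (0.31, SE 0.091, adjusted p = 0.0241) and Tctn3 (0.31, SE 0.10, adjusted p = 0.0467), the IFT-A gene Ift122 (0.36, SE 0.096, adjusted p = 0.0139) and Tulp3 (0.25, SE 0.085, adjusted p = 0.0491), an adaptor that loads membrane receptors onto IFT-A. The negative ones were Arl3 (-0.46, SE 0.11, adjusted p = 0.00656), Ift20 (-0.42, SE 0.11, adjusted p = 0.0109), Ift43 (-0.42, SE 0.12, adjusted p = 0.0176) and Arl6 (-0.35, SE 0.12, adjusted p = 0.0409).

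Tctn1 had 51.6, 55.4, 52.5 and 57.3 CPM in DMSO and 57.7, 51.9, 51.6 and 50.5 CPM with DOX at 3 days, and 55.5, 48.5, 48.3 and 48.1 CPM and 57.8, 61.6, 68.7 and 72.9 CPM at 6 days. The groups overlapped at 3 days and not at 6 days. Its exons overlap those of Hvcn1 on the other strand, and whether counting used the strand is not given in the sources used here. Tctn2 had 36.7, 36.7, 37.0 and 37.4 CPM in DMSO and 32.3, 34.0, 31.5 and 33.9 CPM with DOX at 3 days, where DOX lay lower without overlap. At 6 days it had 39.6, 32.9, 33.0 and 31.3 CPM and 36.4, 36.9, 39.1 and 38.5 CPM, which overlapped. Tulp3 had 41.8, 45.2, 42.8 and 47.8 CPM and 48.6, 49.3, 43.5 and 43.2 CPM at 3 days and 44.2, 44.6, 45.5 and 42.2 CPM and 52.1, 54.8, 53.8 and 57.0 CPM at 6 days, so that the groups overlapped at 3 days and not at 6 days.

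Arl3 had 42.4, 42.6, 42.8 and 43.5 CPM in DMSO and 43.0, 52.1, 51.5 and 57.0 CPM with DOX at 3 days, and 51.2, 48.8, 45.1 and 43.4 CPM and 43.4, 38.7, 42.5 and 38.0 CPM at 6 days. The groups overlapped at 3 days, with 3 of 4 DOX libraries above every DMSO library, and at 6 days DOX lay lower, with the nearest libraries of both groups at 43.4 CPM. Ift43 had 45.1, 40.6, 38.6 and 39.0 CPM and 39.1, 46.8, 47.3 and 53.9 CPM at 3 days and 47.9, 43.3, 43.7 and 41.4 CPM and 42.1, 36.6, 35.4 and 36.7 CPM at 6 days, with the same change of order and overlap at both times. Arl6 had 28.2, 27.7, 28.1 and 26.2 CPM and 31.7, 36.0, 33.5 and 37.7 CPM at 3 days, without overlap, and 25.7, 34.6, 28.6 and 32.4 CPM and 33.4, 27.8, 29.0 and 29.9 CPM at 6 days, with overlap. The exons of Arl6 overlap a noncoding gene on the other strand.

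These differences between times went with transcript length. The 4 genes with a negative difference had effective lengths of 565 to 1273 bases and the 5 with a positive one 2298 to 3678 bases, against a median of 2474 bases over the 47 genes. Across the 47 genes, which share all libraries and are not independent, Spearman's rho between effective length and the log2 fold change was -0.48 at 3 days, 0.10 at 6 days and 0.61 for the difference. Over all tested genes it was -0.42, -0.02 and 0.44. The 23 genes shorter than the median had a median log2 fold change of 0.28 at 3 days and the 24 longer ones -0.04, and at 6 days the medians were 0.15 and 0.21. After each library was corrected for its trend with transcript length and GC content, rho was -0.01, 0.13 and 0.11 over the 47 genes and the medians at 3 days became 0.18 and 0.12. The trend was fitted over all tested genes, so a rho near 0 over these follows from the correction itself. Any response to DOX that follows length would be removed with it.

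With this correction, 1 of the 47 genes was called for the difference between times (2.13%), against 12.7% of all tested genes. It was Tctn1 (0.24, adjusted p = 0.0239), and Tctn2 had 0.23 (adjusted p = 0.0520). The values for Arl3, Ift20, Ift43 and Arl6 became -0.20, -0.15, -0.18 and -0.12. Of the calls between DOX and DMSO, 5 of 6 were kept at 3 days and 7 of 9 at 6 days, and 1 and 4 genes were added, which made 12.8% and 23.4% of the 47 genes against 10.7% and 23.6% of all tested genes. The gene added at 3 days was Ift122 (0.51, adjusted p = 0.00149), and those added at 6 days were Bbs5, Dync2li1, Ift88 and Tctn1. Single libraries moved the count of differences between times, for the 47 genes and for all genes alike. Without replicate 1 of DOX at 3 days 15 of the 47 were called (31.9%, against 28.6% of all tested genes), and without replicate 4 of DMSO or 3 of DOX at 3 days, or replicate 2 of DMSO or 3 of DOX at 6 days, 5 were (10.6%, against 10.3% to 11.6%), of which 2 were positive. The positive count was 3 without replicate 2 of DMSO or 4 of DOX at 3 days, or replicate 3 or 4 of DMSO or 2 or 4 of DOX at 6 days. Tctn2 lost its call without each of the same 4 libraries (0.29 to 0.30, adjusted p from 0.0510 to 0.0570), and Arl6, Tctn3 and Tulp3 each lost it without 11 of the 16 libraries taken singly.

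**Figure D4:**
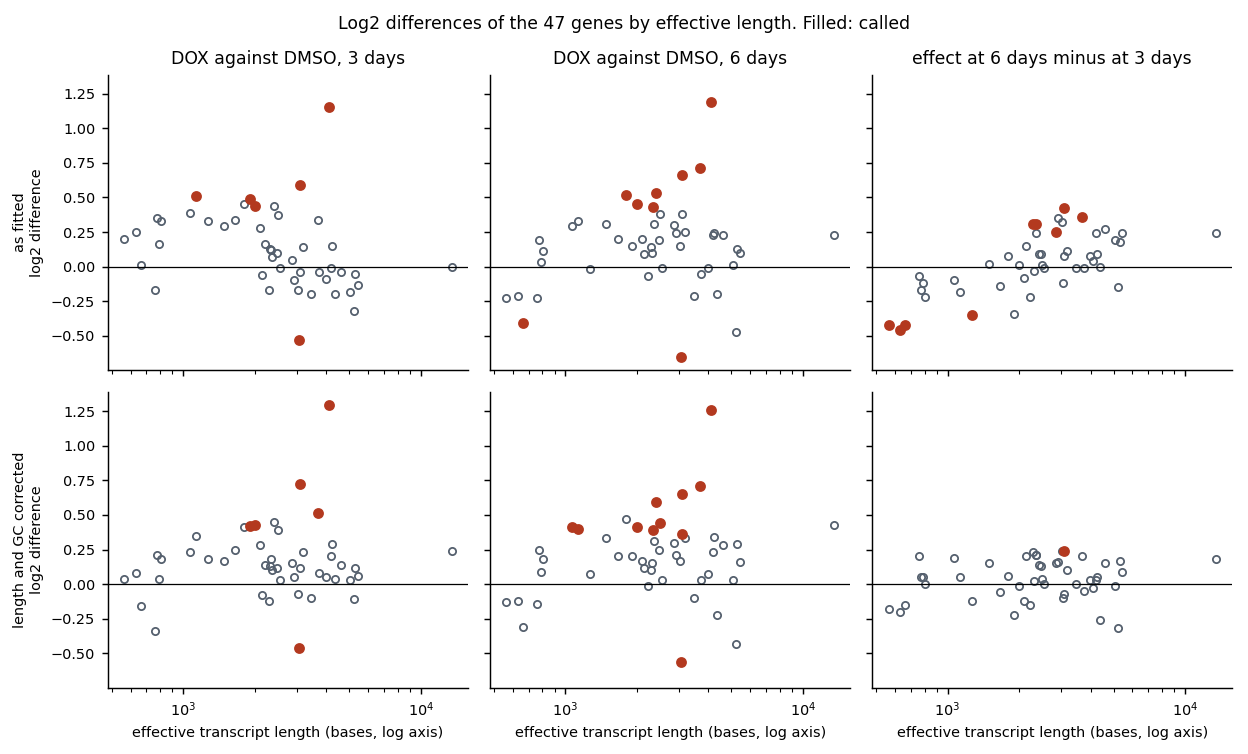
Log2 differences of the 47 genes (vertical axis) against effective transcript length in bases (horizontal log axis) for DOX against DMSO at 3 days, at 6 days, and for the effect at 6 days minus that at 3 days, as fitted (upper row) and with the length and GC correction (lower row). Filled points were called. The slope with length in the upper left and upper right panels, with rho of -0.48 and 0.61, is absent below, where the correction takes out such a trend by construction.

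Genes with the X-box-like letters and genes without them are set side by side here as a description. Of the 13 genes with a match, 5 were called at 3 or 6 days, all 5 higher, and their median log2 fold changes were 0.13 and 0.23. Of the 27 genes with a window and no match, 2 were called, and the medians were 0.05 and 0.11. Of the 7 genes without a window, 4 were called. Over all tested genes 25.4% were called at 3 or 6 days, and among those with a window the share was 26.9% with a match and 25% without.

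The other genes of the pathway were counted from the same fit. Of 79 genes on 5 lists 76 were tested. After 3 days edgeR called 6 (7.89%), 3 in each direction, against 12.5% of all tested genes. After 6 days it called 17 (22.4%), 10 higher and 7 lower, against 21.6% of all tested genes. The count at 3 days was 12 without replicate 1 of DOX and 3 without replicate 4, where 17.3% and 10.8% of all tested genes were called. Of all tested genes, 5.30% were higher and 7.22% lower at 3 days, and 10.0% and 11.6% at 6 days. Among 29 tested further IFT, BBSome and transition zone genes, 1 rose at 3 days and 6 rose at 6 days. Those with the largest rise at 6 days were Anks6 of the inversin compartment (0.91, SE 0.10, edgeR adjusted p = 4.88e-06), and the transition zone genes Tmem231 (0.75, SE 0.08, adjusted p = 1.08e-05) and Tmem17 (0.68, SE 0.19, adjusted p = 0.0303). Of 18 genes of the basal body and centriolar satellites, 2 rose at 3 days and 3 at 6 days, namely Dzip1 (1.86, SE 0.22, adjusted p = 2.17e-06, at 0.493 TPM in DMSO), Cep83 of the distal appendages (0.48, SE 0.07, adjusted p = 0.00392) and the satellite gene Cep131 (0.42, SE 0.08, adjusted p = 0.0401).

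Lower genes were found on the other lists. Of all tested genes, 7.22% were lower at 3 days and 11.6% at 6 days. Of 11 tested genes of ciliary membrane trafficking 1 fell at 3 days and 2 at 6 days, Cys1, which encodes the ciliary protein cystin (-1.13, SE 0.08, edgeR adjusted p = 9.76e-09), and the GTPase Rab11a (-0.77, SE 0.08, adjusted p = 2.56e-06). On a list of transcription factors that holds the RFX family and other regulators tied to cilia, 9 genes were tested, of which 1 fell at 3 days and 1 at 6 days, and 1 rose at 6 days. The one that rose was Rfx5 (0.56, SE 0.08, edgeR adjusted p = 9.18e-04), a family member known for the control of MHC class II genes and not for ciliogenesis. Foxj1, Rfx2 and Rfx3 were not called, at 0.35, 0.34 and -0.25. Of 9 genes that promote cilium disassembly, 1 fell at 3 days and 4 at 6 days, led by the kinases and kinesins Plk1 (-0.64, SE 0.06, adjusted p = 2.23e-06), Kif24 (-0.59, SE 0.09, adjusted p = 0.00114) and Kif2a (-0.53, SE 0.08, adjusted p = 0.00208).

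Cilia are taken down before a cell divides, and genes of cycling cells moved in the same comparisons. Of 21 such genes 7 were lower at 3 days (33.3%) and 15 at 6 days (71.4%), where 7.22% and 11.6% of all tested genes were. Their medians were -0.14 and -0.56 on the log2 scale. The DOX effect differed between the times for 12 of them (57.1%), against 17.0% of all tested genes. The largest falls at 6 days were those of Rrm2 (-1.61, SE 0.08, edgeR adjusted p = 5.10e-12), Mki67 (-1.26, SE 0.08, adjusted p = 1.27e-09) and Top2a (-0.78, SE 0.06, adjusted p = 4.40e-08). Their summed level was 4612 to 4724 CPM in DMSO and 3912 to 4062 CPM with DOX at 3 days, and 4722 to 4902 CPM and 3392 to 3615 CPM at 6 days. Of the 6 epithelial markers 2 were lower at 3 days and 3 at 6 days, and their sum went from 2922 to 3383 CPM in DMSO to 2261 to 2372 CPM with DOX at 6 days. Of 4 tested mesenchymal markers Fn1 rose at 6 days (0.48, SE 0.09, adjusted p = 0.0158). The part of these shifts in the values of the 47 genes was not tested.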

How the data were processed

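RNA of 16 mIMCD3 samples was sequenced as read pairs. Per the labels, the authors aligned reads to GRCm38.p6 with STAR 2.6.0c and quantified with salmon, whose version and strand setting are not given in the sources used here. The deposited estimated counts are not normalized, and the deposited TPM values of the authors divide by effective transcript length. Groups came from the sample labels.

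Estimated counts were rounded. The 13234 genes that reached 1 CPM in 4 or more libraries were scaled by TMM and fitted with edgeR 4.0.16 (R 4.3.3) in a robust quasi-likelihood model with 1 mean a group. glmTreat used a threshold of 1.2 on the fold change, and glmQLFTest tested the difference between times. Tests were two-sided, with Benjamini-Hochberg adjustment over all tested genes and a limit of 0.05. The SE is the log2 fold change divided by the square root of F. Effective length was recovered from the deposited counts and TPM. Alternatives were RLE normalization, DESeq2 1.42.0, limma 3.58.1 on log2(TPM + 1), no threshold, other filters, a non-robust fit, the replicate number as a block, fits of 2 groups, a spline correction for length and GC content (5 degrees of freedom each), and leaving out each library. Fits were tested on simulated counts.

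Genes named are those called in any comparison, the highest and lowest in each role, and the 3 largest changes called at 6 days on each other list. Ift81, Wdr35, Cep290 and other genes given with values but not covered by this rule were picked with their values in view. The 47 genes and the lists were chosen with earlier results of these data known. Some genes that this rule covers are included in the counts and medians but not reported here by name. Gene positions come from GENCODE M21, promoters from RefSeq. On average, same-numbered libraries did not deviate together (mean r from -0.122 to -0.0953 over the comparisons), with single values from -0.433 to 0.178. The numbers were not used as pairs, and these values cannot exclude shared cultures. The SD and SE values include the spread between libraries. A floor of 3 counts, which covers counting error only, came to 0.125 to 0.177 CPM.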

Additional observations from a re-analysis of the deposited data

Results flagged for a closer look

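In 9 genes the DOX effect at 6 days differed from that at 3 days by the test of the difference itself: Tctn1 (0.42), Ift122 (0.36), Tctn2 (0.31), Tctn3 (0.31), Tulp3 (0.25), Arl6 (-0.35), Ift20 (-0.42), Ift43 (-0.42) and Arl3 (-0.46), all on the log2 scale. That is 19.1% of the 47 genes, against 17.0% of all tested genes. With the length and GC correction 1 of these 9 differences, that of Tctn1, was called. This made 2.13% of the 47 genes, against 12.7% of all tested genes.

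In 8 of the 108 group values of the 27 named genes, 1 library stood apart from the other 3 by Dixon's test, and chance alone gives such a library in about 5% of groups. At 3 days these were replicate 4 of DMSO for Dync2h1 (13.5 CPM, the others 12.0 to 12.2) and Ift20 (24.4 CPM, the others 26.6 to 27.0) and replicate 3 of DOX for Ift88 (23.6 CPM, the others 24.9 to 25.1). At 6 days they were replicate 1 of DMSO for Inpp5e (32 CPM, the others 26.9 to 27.7) and Tctn1 (55.5 CPM, the others 48.1 to 48.5), and with DOX replicate 4 for Dync2h1 (13.9 CPM, the others 10.1 to 10.4), replicate 1 for Ift20 (23.5 CPM, the others 19.6 to 19.7) and replicate 3 for Ofd1 (24.4 CPM, the others 25.9 to 26.0).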

How the results depend on the processing

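No called value changed sign in the settings run. Among values that were not called, 22 of the 47 genes changed sign at 3 days and 9 at 6 days in at least 1 of the 11 alternatives, with sizes of up to 0.28 and 0.20 as reported. The median of the 47 genes at 3 days went from 0.12 to -0.04 in TPM, where that of all tested genes went from 0.00 to -0.15. Of 24 calls of single genes, 3 held in all 11 alternatives and without each library: Ahi1 at both times and Ift122 at 6 days. The 9 calls of a difference between times had 10 alternatives, as fits of 2 groups give no such difference. The alternative with a 1.2-fold threshold kept 0 of these 9. With log2(TPM + 1) values, limma's treat called 1 gene at 3 days (1 higher, 0 lower) and 3 at 6 days (2 higher, 1 lower). These were 2.13% and 6.38% of the 47 genes, against 5.32% and 9.92% of all genes on this scale. limma's eBayes, without a fold-change threshold, called 1 difference between times (0 higher, 1 lower), 2.13% against 5.00%. DESeq2 called 5 at 6 days, 4 higher and 1 lower, 10.6% of the 47 genes against 14.8% of all tested genes. Without a fold-change threshold 19 genes were called at 3 days (17 higher, 2 lower), 30 at 6 days (23 higher, 7 lower) and 17 between 6 and 3 days in DOX (12 higher, 5 lower), which is 40.4%, 63.8% and 36.2% of the 47 against 45.2%, 50.6% and 30.2% of all tested genes, and requiring the difference between times to exceed 1.2-fold left 0 calls (0 higher, 0 lower) of 9. RLE normalization left 3 positive differences between times. With no filter beyond 1 count, 1 gene was lower at 6 days.

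The labels do not say whether the replicate numbers pair the samples, and they were not used as pairs. With the replicate block 1 gene was lower at 6 days and 3 differences between times were positive. With the length and GC correction, with and without the block, 1 gene was lower at 6 days and 1 difference between times was called, which was positive, and 0 were negative.

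Leaving out single libraries gave 1 to 2 genes lower at 6 days (1 without replicates 2 or 4 of DMSO or 2, 3 or 4 of DOX at 6 days), and 5 to 15 differences between times, of which 2 to 9 were positive. These libraries are named with the results above.

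For the 76 other cilium genes tested, DESeq2 called 3 at 3 days and 0 between 6 and 3 days in DOX. Its shares over all tested genes were 7.70% and 1.84%. limma called 2 at 3 days, 6 at 6 days, 0 between the times in DOX and 2 differences. Its shares over all genes on the TPM scale were 5.32%, 9.92%, 0.653% and 5.00%. Without a threshold 39, 42 and 29 genes were called at 3 days, at 6 days and between the times in DOX, and with one on the difference 1 was. These fits called 45.2%, 50.6%, 30.2% and 1.38% of all tested genes. The correction, with and without the block, left 1 gene between the times in DOX and 11 differences. It called 2.43% and 12.7% of all tested genes, and with the block 2.26% and 12.3%. Single libraries moved the count at 3 days to between 3 and 12, that between the times in DOX to between 0 (without replicate 4 of DOX at 3 days) and 8 (without replicate 1), and the differences to between 13 (without replicate 4 of DMSO or 3 of DOX at 3 days) and 27.

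Mks1, at 3.37 to 8.53 CPM a library, had an SE of 0.14 at both times. Gene levels by median in place of mean TPM stayed within 1 SD, and the motif count was 13 with either spacer.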
